A study of Homo sapiens with 4 samples.

Results

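The HOX genes encode homeodomain transcription factors, and the genes described here were the 37 members of the HOXA, HOXB, HOXC and HOXD clusters listed for this work, out of 20136 annotated protein-coding genes. They comprised 10 HOXA genes on chromosome 7, 9 HOXB genes on chromosome 17, 9 HOXC genes on chromosome 12 and 9 HOXD genes on chromosome 2. They were chosen by name, with no threshold on a measured value, and other HOX genes were not analysed here. A peak was assigned to a gene when it shared at least 1 bp with the gene span extended by 10 kb on each side, in GRCh37 (hg19) coordinates.

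The peaks came from ChIP-seq of LNCaP, an established line of human prostate cancer cells that respond to androgen. Acetylation of histone H3 at lysine 27 (H3K27Ac), a mark of active promoters and enhancers, was profiled at passage 20 in cells kept in RPMI with charcoal-stripped serum, from which steroid hormones are removed. One of these cultures received vehicle, and the other received 10 nM of the androgen dihydrotestosterone (DHT) for 4 h. TCF7L2, a transcription factor of the Wnt pathway that binds DNA with beta-catenin, was profiled at passage 15 in cells grown in 10% fetal bovine serum that was not stripped. All cultures were collected at 80% confluence, and every group had 1 library of 1 cell line, so nothing here measures how cultures vary and no test between conditions was possible. Serum and passage cannot be told apart from the antibody when TCF7L2 is set beside H3K27Ac.

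The clusters arose by duplication of an ancestral cluster, and genes in the same place of different clusters form numbered paralogue groups. Within each cluster all genes are read in the same direction, with the low-numbered genes at the 3′ end. In embryos the low-numbered genes are used more anteriorly and the high-numbered genes more posteriorly, and adult tissues keep position-specific sets of active HOX genes. Polycomb complexes, which place trimethylation on the same lysine that H3K27Ac occupies, keep unused HOX genes silent, and Trithorax complexes maintain the active ones. The prostate arises from the urogenital sinus, where posterior HOX genes are active.

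The value of a peak is its height, the largest number of tags piled up within it. The vehicle list held 57623 peaks with heights from 9 to 212 tags and a median of 22, the DHT list held 60752 peaks from 10 to 213 with a median of 23, and the TCF7L2 list held 20955 peaks from 15 tags upward with a median of 31. The number of reads behind each list is unknown. As a check of the cells and of the treatment, all 7 luminal prostate markers and none of the 3 basal markers had an H3K27Ac peak over a promoter in either list. None of 3 leukocyte markers had one, and COL1A1, at 34 and 37 tags, was the only one of 3 stromal markers to have one. The tallest promoter peak of KLK3, which encodes prostate-specific antigen, was 10 tags in the vehicle list and 148 in the DHT list. Within 10 kb of the KLK3 span the greatest height was already 97 in the vehicle list, against 161 in the DHT list. The contrast at KLK3 was thus much smaller by that wider rule than over the promoter. Of the other androgen-induced genes listed for this check, FKBP5 stood at 73 and 134 tags and TMPRSS2 at 106 and 125.

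The 4 clusters differed in how much H3K27Ac they carried. The windows from the first to the last member with 10 kb on each side were 120 kb for HOXA, 125 kb for HOXB, 137 kb for HOXC and 118 kb for HOXD. HOXC held 13 peaks in the vehicle list and 11 in the DHT list, HOXA held 7 and 8, HOXB held 3 and 3, and HOXD held none in either list. The share of bases under a peak was 18.5% with vehicle and 17.8% with DHT for HOXC, 9.62% and 10.8% for HOXA, 4.73% and 4.97% for HOXB, and 0% for HOXD. Over the 4 windows together the share was 8.56% with vehicle and 8.70% with DHT, beside 6.32% and 6.78% over the windows of all protein-coding genes. HOXC and HOXA were thus above that level and HOXB and HOXD were below it, in both lists. The 4 windows held the 37 members in 500 kb, beside 20136 genes in 1513 Mb of all gene windows. The shares were not matched for this gene density. With the 25000 tallest peaks of each list alone, HOXA fell below HOXB, at 2.86% and 2.96% beside 4.03% and 3.96%, and below the level over all gene windows, 4.43% and 4.68%.

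**Figure D1:**
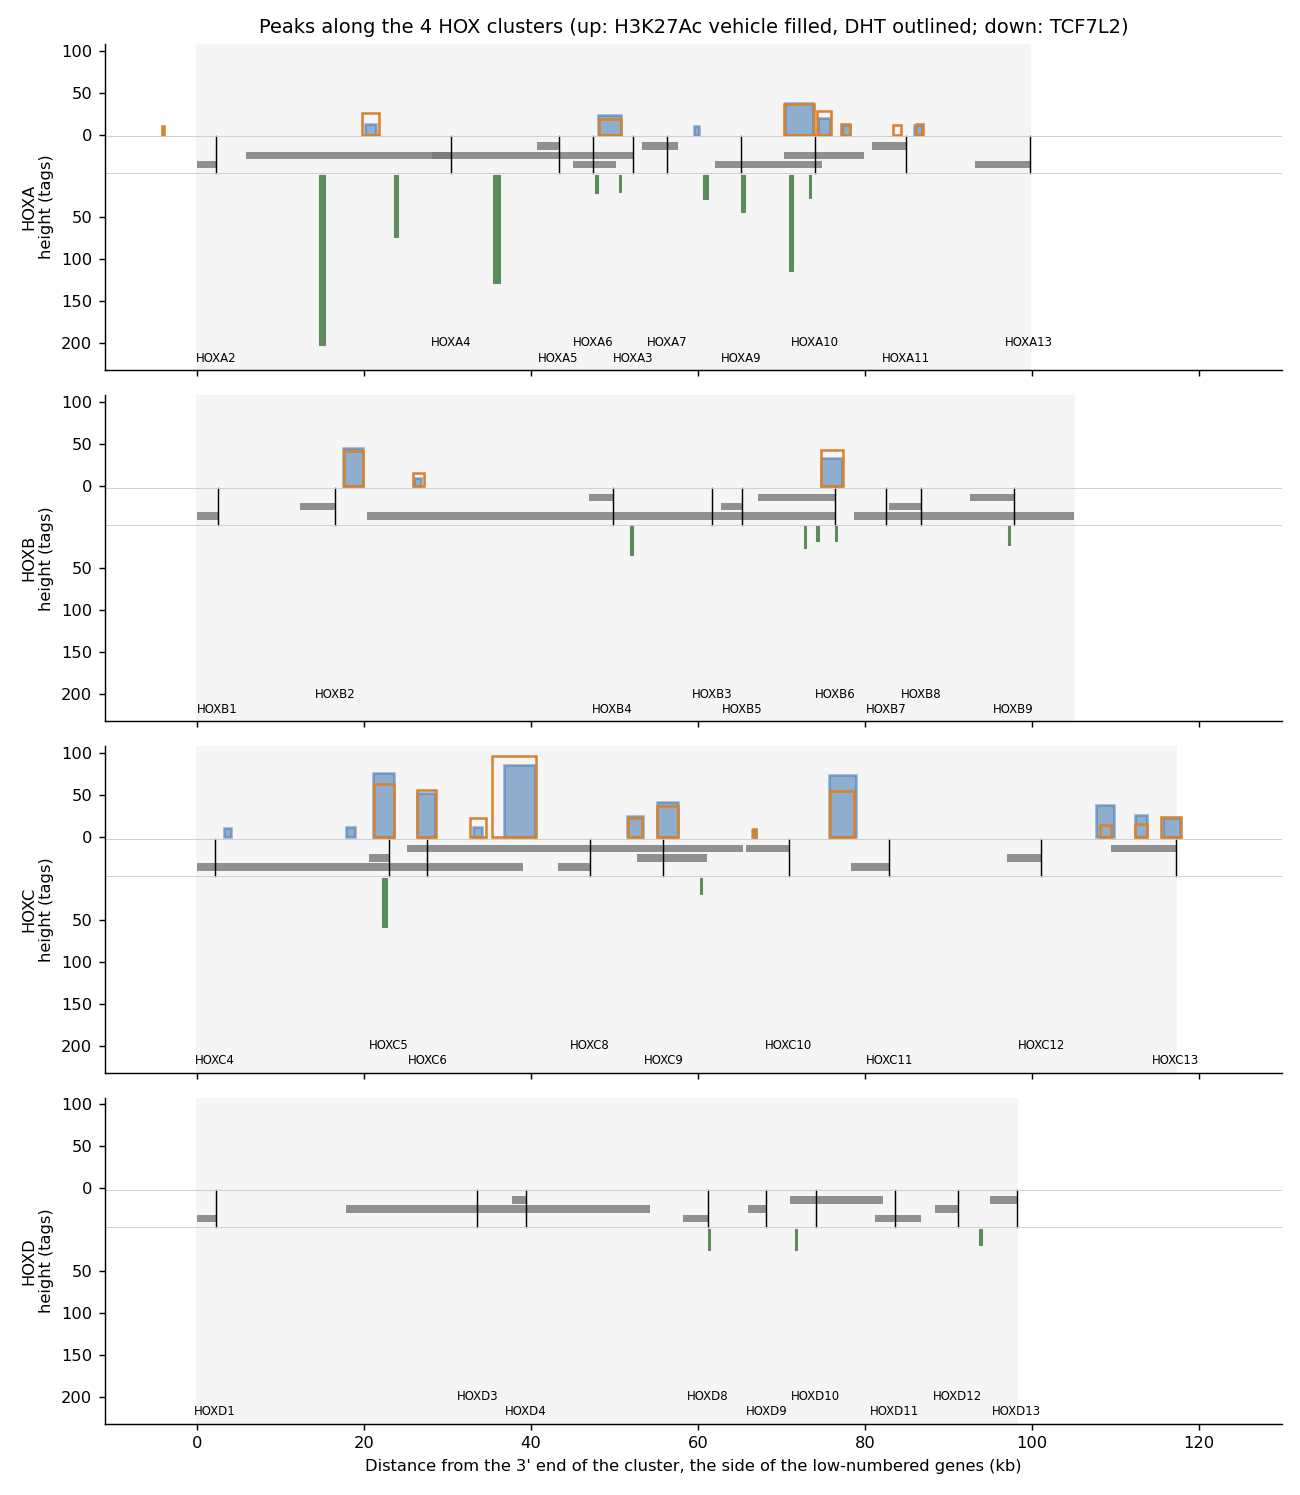
Peaks along the HOXA, HOXB, HOXC and HOXD clusters, with distance from the 3′ end of the cluster in kb on the horizontal axis and peak height in tags on the vertical axis. Filled blue boxes are H3K27Ac with vehicle, orange outlines H3K27Ac with DHT, green boxes below are TCF7L2, grey bars are gene spans and black ticks canonical starts; HOXD holds no H3K27Ac box, and the tallest TCF7L2 box, of 202 tags, is in HOXA.

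In HOXD the stretch without H3K27Ac was the whole window of 118 kb. The nearest vehicle peak beyond it was 68.1 kb away on the 3′ side, with 26 tags, and 80.3 kb away on the 5′ side, with 9 tags. The nearest DHT peaks lay at about the same places, 68.0 kb away with 28 tags and 80.05 kb away with 14 tags. In HOXB a stretch of 47.9 kb with vehicle and 47.5 kb with DHT was free of H3K27Ac and held the canonical starts of HOXB3, HOXB4 and HOXB5. By this mark HOXD was empty, HOXB carried 3 isolated peaks, and HOXC carried peaks at intervals from HOXC13 to HOXC4.

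At the promoters, defined as 1000 bp upstream to 100 bp downstream of any annotated start, 12 of the 37 HOX genes (32.4%) had an H3K27Ac peak with vehicle, and the same 12 had one with DHT. By the same rule 56.3% of all protein-coding genes had a promoter peak with vehicle and 57.5% with DHT, so the HOX genes were below the background in both lists. The 12 genes were HOXA3, HOXA6, HOXA9, HOXA10, HOXB2, HOXB3, HOXB6, HOXC4, HOXC5, HOXC6, HOXC9 and HOXC13, that is 4 of 10 in HOXA, 3 of 9 in HOXB, 5 of 9 in HOXC and 0 of 9 in HOXD. At the start of the canonical transcript alone, the count was 8 of 37 in each list (21.6%), beside 50.8% of all genes with vehicle and 52% with DHT. Genes without a tagged canonical transcript count as lacking a peak in these shares. The 4 genes that dropped out, HOXA3, HOXA9, HOXB3 and HOXC4, were those whose promoter peaks lay only over alternative starts.

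Within 10 kb of the gene span, 24 of 37 HOX genes (64.9%) had an H3K27Ac peak with vehicle and 25 (67.6%) with DHT, beside 77.6% and 78.8% of all protein-coding genes. Genes in a cluster share peaks, since their extended spans overlap, so these counts are not independent of each other. The gene added with DHT was HOXA2, through a peak of 10 tags, which is the lowest height of that list. No H3K27Ac peak of either list lay within 10 kb of 12 genes, namely HOXB1, HOXB4, HOXB9 and all 9 HOXD genes.

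By paralogue group, group 6 was the only one of 13 in which every member had a promoter peak. In vehicle and then DHT, HOXA6 had 23 and 19 tags, HOXB6 had 33 and 43, and HOXC6 had 86 and 97. In groups 1, 7, 8, 11 and 12 no member had a promoter peak in either list. Among the 11 genes of the anterior groups 1 to 4, 4 had a promoter peak and 1 had a peak over the canonical start. Among the 11 genes of the central groups 5 to 8, both counts were 4, and among the 15 genes of the posterior groups 9 to 13 they were 4 and 3, the same in both lists.

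**Figure D2:**
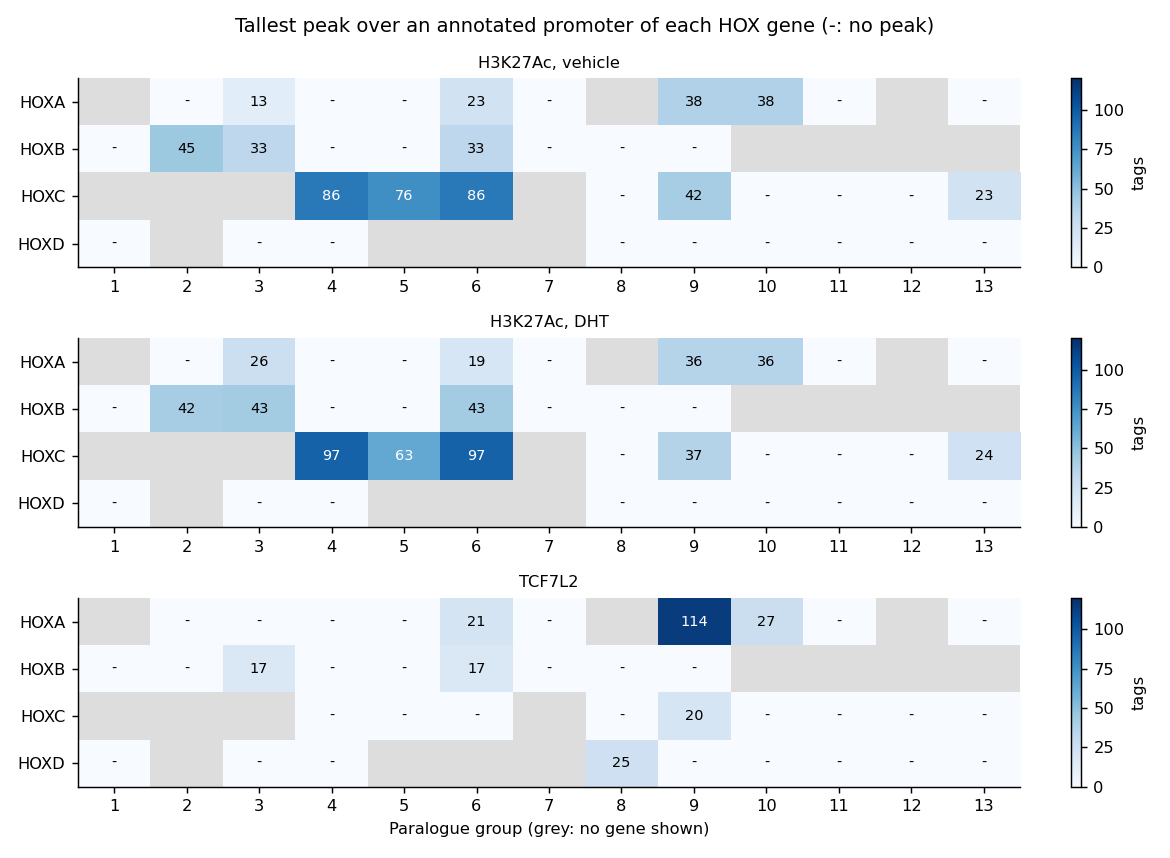
Tallest peak, in tags, over any annotated promoter of each HOX gene, with clusters in rows and paralogue groups in columns, for H3K27Ac with vehicle, H3K27Ac with DHT and TCF7L2. A dash is a gene without a promoter peak and grey is a position with no gene shown; HOXC4, HOXC5 and HOXC6 hold the highest H3K27Ac values, from 63 to 97 tags, and the HOXD row holds dashes only for H3K27Ac.

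The tallest H3K27Ac peak of the clusters lay over alternative starts of HOXC4 and HOXC6 in HOXC, at chr12:54409260-54414449. Its height was 86 tags in the vehicle list (exact 95% Poisson interval 68.8 to 106) and 97 in the DHT list (78.7 to 118), intervals that cover counting error only. In its own list 5.55% of vehicle peaks and 4.61% of DHT peaks were taller. HOXC4 and HOXC6 thus shared a peak that was high for the whole list but not extreme.

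At the HOXC5 start the height was 76 tags in the vehicle list and 63 in the DHT list, and over the canonical start of HOXC6 it had 53 and 56. Toward the 5′ end the HOXC9 start had 42 and 37 tags and the HOXC13 start had 23 and 24. The peak at the end of HOXC11, 4.01 kb from that gene's start, was among the tallest with 74 and 55 tags, although HOXC11 itself had no promoter peak. The lowest HOXC peak in both lists, over an exon of HOXC10, had 9 and 10 tags. Heights in HOXC therefore spanned nearly an order of magnitude within 1 cluster, and HOXC8, HOXC10, HOXC11 and HOXC12 had no promoter peak.

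In HOXA the tallest peak lay over HOXA10, at 38 tags in the vehicle list (26.9 to 52.2) and 36 in the DHT list (25.2 to 49.8), and it also covered an alternative start of HOXA9. HOXA10 is a posterior HOX gene that is active in the reproductive tract. A second peak upstream of the HOXA10 start had 20 and 28 tags, and the HOXA6 peak had 23 and 19. HOXA2, HOXA4, HOXA5, HOXA7, HOXA11 and HOXA13 had no promoter peak in either list.

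In HOXB the tallest vehicle peak lay upstream of HOXB2, with 45 tags (32.8 to 60.2) and 42 with DHT (30.3 to 56.8). The tallest DHT peak lay over the HOXB6 start and the outermost start of HOXB3, at 33 tags in the vehicle list (22.7 to 46.3) and 43 in the DHT list (31.1 to 57.9). The third HOXB peak, over an inner start of HOXB3, had 10 and 16 tags. All 3 HOXB peaks were thus found in both lists.

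Peaks of the 2 H3K27Ac lists that shared at least 1 bp were joined, which gave 25 regions in the clusters, 9 in HOXA, 3 in HOXB and 13 in HOXC, numbered by chromosome position within each cluster. Of these, 13 reached a promoter of a member gene and 9 a canonical promoter, and promoters of non-coding RNA genes were not counted. The median height of regions over a promoter was 33 tags for vehicle and 36.5 for DHT, and the others had medians of 12 and 14. The higher peaks of the clusters were thus mostly at promoters of HOX genes, with the peak at the end of HOXC11 as the largest exception. The same split was not made over all regions, so it cannot be called particular to the HOX clusters.

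To ask whether androgen was followed by a change of acetylation at the HOX genes, heights were compared between the lists. Of the 25 regions, 20 were in both lists and 5 (20%) in 1 list only, beside 25.8% of all 66690 regions. Those with vehicle alone had 12 tags over a start of HOXC4, 11 tags near the canonical start of HOXC4 and 10 tags between HOXA7 and HOXA9. Those with DHT alone had 12 tags over HOXA11 and 10 tags in HOTAIRM1, a long non-coding RNA gene at the 3′ end of HOXA. All 5 were near the lowest height of their list.

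**Figure D3:**
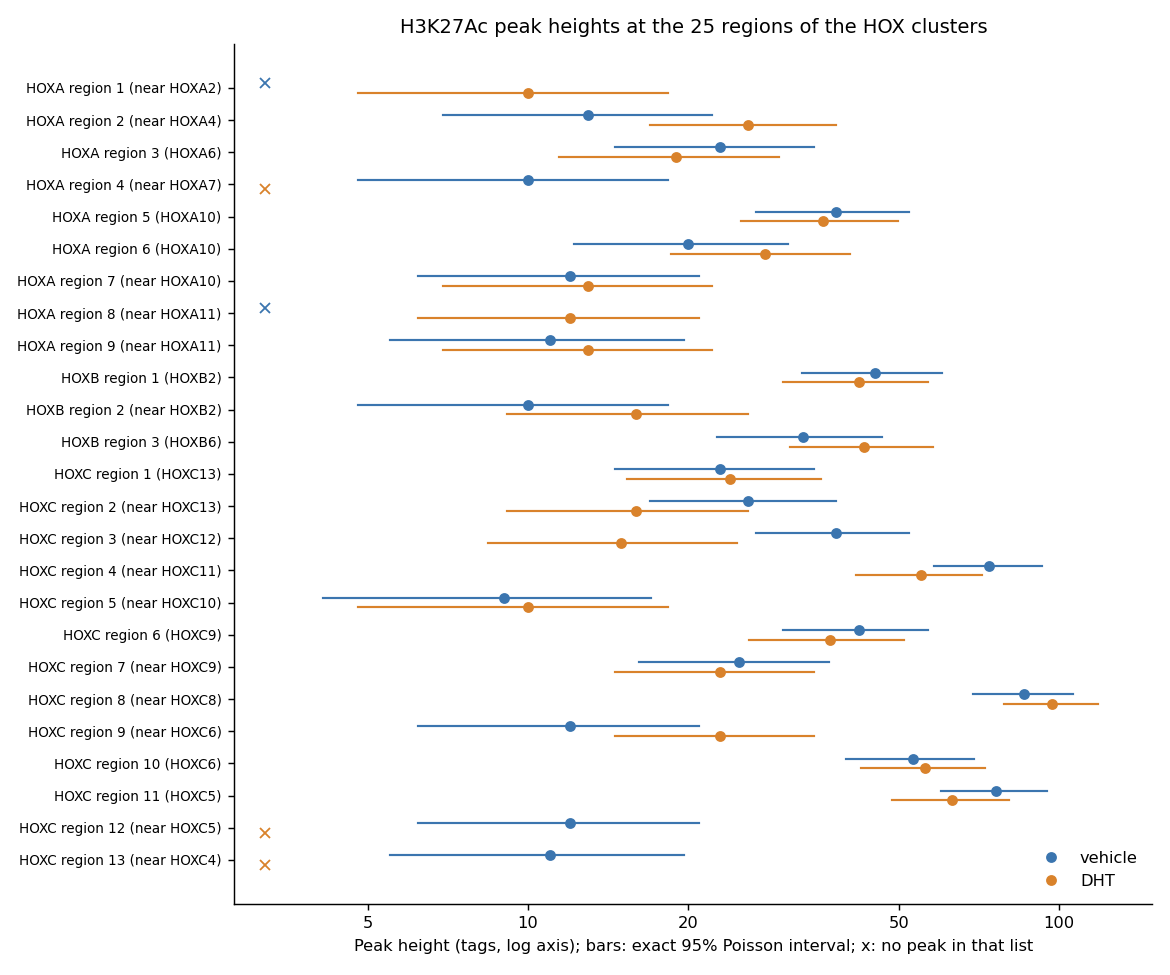
H3K27Ac peak height in tags on a logarithmic axis at each of the 25 HOX regions, blue for vehicle and orange for DHT, with exact 95% Poisson intervals as bars and a cross where a list has no peak. The intervals of both conditions overlap at every region but HOXC region 3, which has 38 tags with vehicle and 15 with DHT.

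Of the 20 regions in both lists, 11 were higher and 9 were lower with DHT. The median ratio of DHT to vehicle height was 1.05, beside 1.07 over all 49492 regions in both lists. A height at least 1.5-fold higher with DHT was found at 3 of 20 HOX regions (15%), beside 14.6% of all regions, and a height at least 1.5-fold lower at 2 of 20 (10%), beside 6.7%. With DHT heights divided by the median ratio of all regions, these counts were 2 and 2, beside 11.4% and 9.28%. The HOX shares were near the background in both directions.

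By cluster, the median ratio was 1.13 over 6 HOXA regions, 1.30 over 3 HOXB regions and 0.92 over 11 HOXC regions. In HOXA 4 regions were higher and 2 lower with DHT, in HOXB 2 were higher and 1 lower, and in HOXC 5 were higher and 6 lower. Over all regions the interquartile range of ratios ran from 0.879 to 1.28, which takes in the HOXA and HOXC medians and stops just short of the HOXB median. The median was 1.39 over the 6 HOX regions with under 20 vehicle tags and 0.943 over the 4 with at least 50, and over all regions under 20 vehicle tags it was 1.17.

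The lowest ratio was found over the 3′ end of HOXC13, at chr12:54339960-54342179. The height there was 38 tags in the vehicle list (26.9 to 52.2), and 15 in the DHT list (8.40 to 24.7), a ratio of 0.395 with an exact 95% interval of 0.202 to 0.735. It was the only 1 of the 20 HOX regions in both lists whose interval left out 1. The intervals were not adjusted for the number of regions, and the share of all regions that leave out 1 was not computed. Over the middle of the same gene the heights were 26 and 16 tags, a ratio of 0.615 (0.308 to 1.19), whereas over the HOXC13 start it had 23 and 24 (0.564 to 1.93 around 1.04). HOXC13, the most posterior gene of HOXC, is known for its part in hair and nail formation. The peaks within and behind HOXC13 were thus lower in the DHT list, although the interval of the peak within it included 1. The peak at its start was not lower.

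The next lowest ratios were 0.743 (0.515 to 1.07) at the end of HOXC11, with 74 and 55 tags, and 0.826 (0.425 to 1.59) at HOXA6, with 23 and 19. The highest ratio was 2 (0.991 to 4.24) at an inner start of HOXA3, chr7:27159720-27161729, at 13 and 26 tags. Next were 1.92 (0.915 to 4.23) in an intron shared by HOXC4 and HOXC6, with 12 and 23 tags, 1.6 (0.683 to 3.94) at the inner start of HOXB3, with 10 and 16, and 1.4 (0.761 to 2.62) upstream of HOXA10, with 20 and 28. All 4 of the highest ratios rested on vehicle heights of 20 tags or less, and their intervals included 1.

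**Figure D4:**
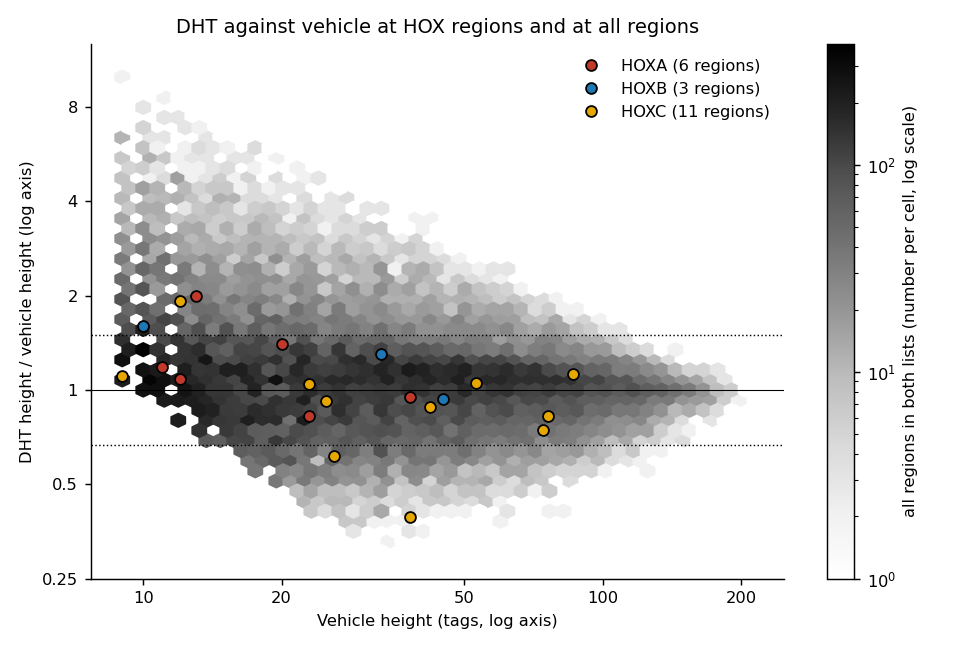
Ratio of DHT to vehicle height against vehicle height in tags, both on logarithmic axes, for HOXA, HOXB and HOXC regions (coloured points) and for all 49492 regions in both lists (grey cells, darker with more regions). Dotted lines mark 1.5-fold in each direction; the HOX points lie among the other regions, with 3 above the upper line and 2 below the lower one.

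TCF7L2 was distributed differently from H3K27Ac along the clusters. The TCF7L2 list held 19 peaks there, 9 in HOXA, 5 in HOXB, 2 in HOXC and 3 in HOXD. Their median height was 26 tags, beside 31 over the whole list. They covered 1.42% of the 4 windows, beside 0.354% over the windows of all protein-coding genes, again not matched for gene density. Within 10 kb, 27 of 37 HOX genes (73.0%) had a TCF7L2 peak, beside 45.1% of all genes, with 8 of 10 in HOXA, 7 of 9 in HOXB, 5 of 9 in HOXC and 7 of 9 in HOXD. With the 15000 tallest TCF7L2 peaks alone it was 22 of 37, for which no share of all genes is given here. At the promoters the count was 7 of 37 (18.9%), beside 20.2% of all genes. The 7 genes were HOXA6, HOXA9, HOXA10, HOXB3, HOXB6, HOXC9 and HOXD8. With the gene span alone in place of 10 kb on each side, 14 of 37 HOX genes had a TCF7L2 peak, beside 32% of all genes. The HOX genes were thus above the background within 10 kb, nearer to it in the gene span and close to it at promoters. The 27 genes share the 19 peaks through their overlapping extended spans, so they are not independent of each other.

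The tallest TCF7L2 peak of the clusters, at chr7:27154560-27155309, had 202 tags (exact 95% Poisson interval 175 to 232), and 172 of the 20955 peaks of the list (0.821%) were taller. It lay in an intron of HOXA3 and over a start of HOXA-AS2, an antisense RNA gene. The nearest H3K27Ac peak was 4.77 kb away with vehicle and 4.41 kb away with DHT. The next in height were 128 tags (107 to 152) in another intron of HOXA3 at chr7:27175440-27176309, 114 tags (94.0 to 137) in a HOXA10 exon at chr7:27210840-27211319, 74 tags (58.1 to 92.9) in a HOXA3 exon at chr7:27163620-27164099 and 59 tags (44.9 to 76.1) in HOXC5 at chr12:54427020-54427589. Of the 5 peaks with at least 50 tags, 4 were therefore in HOXA. Outside H3K27Ac of both lists lay 3 of the 5, beside 68.8% of all 5860 TCF7L2 peaks of that height.

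The tallest TCF7L2 peak of HOXB had 34 tags (23.5 to 47.5) and lay in HOXB3, 2.03 kb from the start of HOXB4 and 22.4 kb from the nearest H3K27Ac. In HOXD the 2 tallest peaks had 25 tags (16.2 to 36.9), over the start of HOXD8 and in an exon of HOXD10, and the third had 19 tags between HOXD12 and HOXD13. All 3 HOXD peaks were over 90 kb (94.4 kb or more) from H3K27Ac of either list. HOXC, the cluster with the most H3K27Ac, had the fewest TCF7L2 peaks, with 20 tags in a start of HOXC9 beside the one in HOXC5.

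Of the 19 HOX TCF7L2 peaks, 5 (26.3%) shared at least 1 bp with an H3K27Ac peak of either list, beside 34.5% of all TCF7L2 peaks. These were the peaks of 114 and 27 tags at HOXA10, of 20 tags near HOXA6, of 17 tags at HOXB6 and of 59 tags in HOXC5. The HOXC5 peak lay where H3K27Ac stood at 76 and 63 tags, and the peak of 114 tags where it had 38 and 36. Of the 12 HOX genes without H3K27Ac within 10 kb, 9 had a TCF7L2 peak, namely HOXB4, HOXB9, HOXD3 and HOXD8 to HOXD13, beside 19.3% of the 3993 protein-coding genes without H3K27Ac by the same rule. The 7 HOXD genes among them share 3 peaks, so the 9 are not independent. HOXB1, HOXD1 and HOXD4 had no peak of any list within 10 kb.

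TCF and LEF factors recognise CTTTGAT and close forms of it. On both strands of the 301 bp around each peak center, CTTTGAT was found in 5 of 19 HOX peaks (26.3%) and in 15.1% of all TCF7L2 peaks, and at least 1 of 4 forms in 8 of 19 (42.1%) and in 41.0%. These were the form CTTTGAA, the form CTTTGAT, the form CTTTGTA and the form CTTTGTT. Among HOX peaks of at least 50 tags 1 of 5 held CTTTGAT, beside 20.3% of all such peaks, and among the lower ones 4 of 14, beside 13.2%. The bases within 60 bp of the centers of 4 HOX peaks, the tallest and 3 with CTTTGAT, are given 5′ to 3′ on the plus strand of GRCh37, with any of the 4 forms, or its reverse complement such as ATCAAAG, in capitals.
HOXA3 intron peak of 202 tags, chr7:27154874-27154994: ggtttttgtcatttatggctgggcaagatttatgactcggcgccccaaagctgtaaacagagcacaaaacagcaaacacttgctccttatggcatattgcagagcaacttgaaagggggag
HOXC5 peak of 59 tags, chr12:54427244-54427364: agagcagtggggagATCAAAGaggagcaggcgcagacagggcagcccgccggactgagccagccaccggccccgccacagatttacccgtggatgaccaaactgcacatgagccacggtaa
HOXB6 peak of 26 tags, chr17:46678679-46678799: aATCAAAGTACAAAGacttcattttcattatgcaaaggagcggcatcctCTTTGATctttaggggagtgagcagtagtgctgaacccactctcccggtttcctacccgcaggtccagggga
HOXB9 peak of 22 tags, chr17:46703084-46703204: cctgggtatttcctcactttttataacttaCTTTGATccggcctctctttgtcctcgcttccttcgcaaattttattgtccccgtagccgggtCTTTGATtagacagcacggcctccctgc

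The peak of 202 tags held none of the 4 forms in these bases and held CTTTGTT on the minus strand 125 bp from its center. The peak of 26 tags in the HOXB6 span held 3 matches, of which ATCAAAG and TACAAAG lie directly side by side on the minus strand, and the HOXB9 peak held 2. The 4 peaks were chosen for their height or for a match, so no relation between height and matches can be read from them. A match is a description of the sequence and not a binding site.

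HOX promoters are rich in CpG, a dinucleotide that marks promoters of widely used and of developmental genes. The ratio of observed to expected CpG within 500 bp of the canonical start had a median of 0.802 over the 37 HOX genes, beside 0.726 over the 19856 protein-coding genes with a tagged canonical transcript. Among all genes, those with an H3K27Ac peak of either list over the canonical promoter had a median of 0.792 and those without had 0.459. Among HOX genes the order was the other way, with 0.678 over the 8 with a peak and 0.816 over the 29 without. Of HOX promoters with a ratio over 0.8, 2 of 19 had a peak, beside 75.2% of all genes, and of those from 0.6 to 0.8, 3 of 13, beside 67.5%. From 0.4 to 0.6 it was 2 of 3, beside 33.2%, and under 0.4 it was 1 of 2, beside 11.8%.

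**Figure D5:**
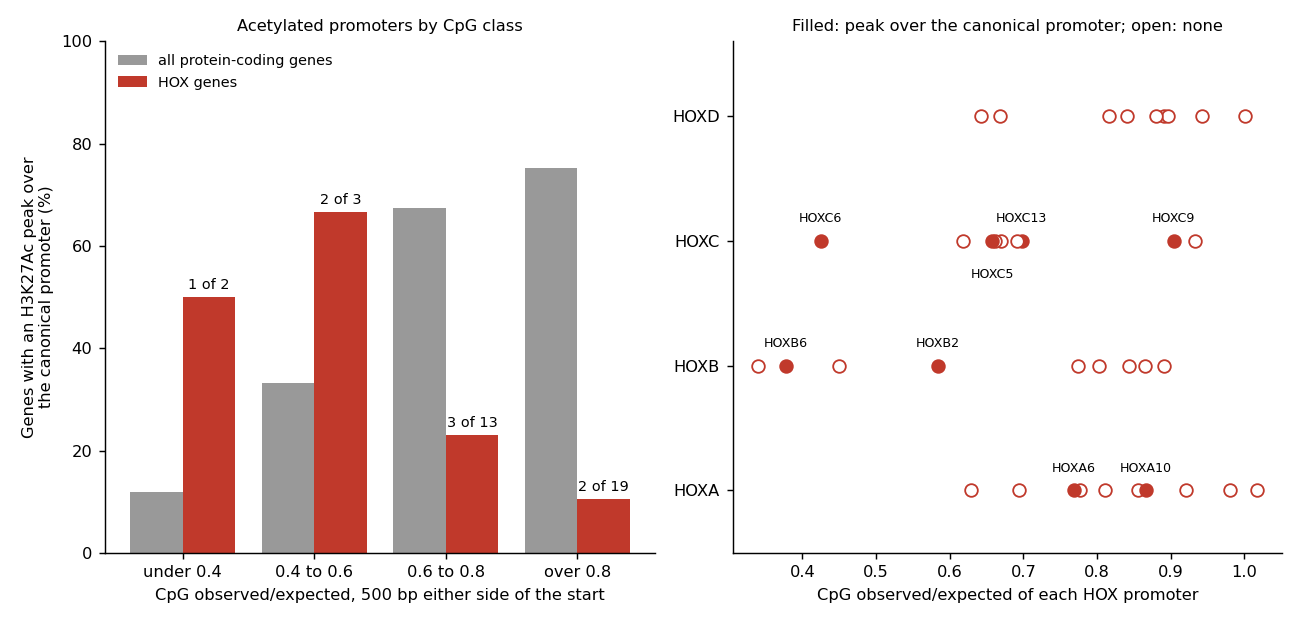
Left, percent of genes with an H3K27Ac peak over the canonical promoter by CpG observed/expected ratio, grey for all protein-coding genes and red for HOX genes, with HOX counts above the bars. Right, the ratio of each HOX promoter by cluster, filled where a peak lies over it; all 9 HOXD promoters are open, and HOXB6 and HOXC6 are filled at 0.377 and 0.425.

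Paralogue groups 2, 5, 9, 10 and 13 each had 1 member with an H3K27Ac peak over its canonical promoter. That member had the lowest CpG ratio of its group in groups 2, 5 and 13, but not in groups 9 and 10. In group 2, HOXB2 had the peak and a ratio of 0.584, beside 0.777 for HOXA2. In group 13, HOXC13 had the peak and a ratio of 0.698, beside 0.840 for HOXD13 and 0.921 for HOXA13. In group 5, HOXA5 had a ratio of 0.980, HOXB5 0.843 and HOXC5 0.657, and HOXC5, the lowest, was the one with an H3K27Ac peak over its canonical promoter, of 76 and 63 tags. In group 10, HOXA10 was the one with a peak and had the highest ratio, 0.867, beside 0.691 for HOXC10 and 0.668 for HOXD10. In group 9, HOXC9 was the one with a peak, and its ratio of 0.904 lay between 1.02 for HOXA9 and 0.890 for HOXD9, with HOXB9 at 0.802. HOXB6 had a promoter peak of 33 and 43 tags at a ratio of 0.377.

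Genes that work with HOX proteins or on HOX chromatin were counted by the same promoter rule. Of 9 TALE cofactors, homeodomain proteins that bind DNA together with HOX proteins, 6 had an H3K27Ac promoter peak in each list, from PBX2 at 16 and 18 tags to PKNOX2 with 139 in both, and MEIS2 and MEIS3 had none within 10 kb. Of 14 Polycomb genes all had one, the lowest being RNF2 with vehicle, at 14 tags (20 with DHT), and CBX7 with DHT, at 12 tags (16 with vehicle). A further list of 8 held genes of Trithorax complexes, H3K27 demethylases and DOT1L, which is neither. All 8 had an H3K27Ac promoter peak, with MEN1 the lowest at 33 and 35 tags. The highest was KDM6A with vehicle, at 127 tags (107 with DHT), and KDM6B with DHT, at 119 tags (110 with vehicle). Of 13 HOX-related homeobox genes outside the clusters, only MNX1 had one, with 106 and 92 tags. The shares over all genes were 56.3% and 57.5%, so the HOX-related genes were below them, as the HOX genes were.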

How the data were processed

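H3K27Ac and TCF7L2 ChIP-seq peaks of LNCaP cells were taken from 3 deposited lists, 1 per library. An input library was not analysed here. According to the methods of the study, the authors used hg19 with Bowtie 2 for H3K27Ac and with Illumina's ELAND for TCF7L2. The submitters' processing notes list CASAVA 1.8.2, Bowtie2 and BWA. The authors called peaks with Sole-search in each library, more strictly and with a blur length for H3K27Ac, which widens its peaks. The deposited signal is the height of the tag pileup of each peak, and scaling to depth is not stated in the labels or methods. Reads per library are not in the lists. The labels give 10% serum for TCF7L2, where the methods give another share.

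Gene spans, starts and canonical transcripts came from GENCODE, release 44 mapped to GRCh37, and every peak lay within GRCh37 chromosome lengths. Promoters were 1000 bp upstream to 100 bp downstream of a start. An overlap of 1 bp counted. Peaks of both H3K27Ac lists were joined into regions, and the tallest peak gave a region its height. Intervals of heights were exact Poisson and those of ratios exact binomial, at 95%, for counting error only. CpG ratios used 500 bp on each side of the canonical start, and motifs 150 bp on each side of the peak center. With 1 library per group no test was made, and the share over all genes or regions is the background.

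Members and gene lists were chosen with earlier results of these data known. Named were all 37 HOX genes, by value or in counts, the tallest H3K27Ac region of each cluster, the 4 highest and 4 lowest ratios, regions in 1 list only, the 5 tallest TCF7L2 peaks and the tallest of each cluster, and the highest and lowest gene of each other list, of which 1 gene and some sequences are not reported here. Other features named were chosen after their values were seen. Alternatives covered peak number, promoter and span definitions, overlap, scaling and fold. On simulated data, 200 of 200 planted changes among 2000 peaks were recovered, and overlaps differed from bedtools 2.31.1 by 0. The planted changes carried no counting noise between the lists and lay past the fold used. Their recovery was therefore certain: it checks the code and does not show what changes could be detected in these data. The scripts ran in Python 3.11.15 with scipy 1.17.1, pandas 2.3.3, numpy 2.4.6 and matplotlib 3.10.9.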

Additional observations from a re-analysis of the deposited data

How the results depend on the processing

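Of 53 alternative values computed, 43 kept their direction and stayed near the main value, and 10 moved. With the gene span alone in place of 10 kb on each side, the HOX genes with an H3K27Ac peak fell to 13 with vehicle and 14 with DHT, and those with a TCF7L2 peak to 14. With the 25000 tallest peaks of each list, 16 HOX genes had a DHT peak within 10 kb, and the covered share was 2.86% with vehicle and 2.96% with DHT for HOXA and 11.3% with DHT for HOXC. By gene span alone 32% of all genes had a TCF7L2 peak. For H3K27Ac the share of all genes was not computed by gene span or with the tallest peaks. These H3K27Ac gene counts therefore cannot be set against a background. The number of regions higher with DHT was 5 at the lower fold tried and 1 at a fold of 2, and the number lower was 1 at a fold of 2. In the cases named the alternative itself took in fewer peaks or bases, or another fold. The alternative of the canonical start alone was chosen after seeing the data.

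Depth limits the reading of low peaks: heights start at 9 tags with vehicle and 10 with DHT, so acetylation below those heights was not detectable in the lists. With 1 library per group, no interval covers the spread between cultures, and neither copy number of the clusters in LNCaP nor mappability was tested. No paired analysis was possible because no value comes from a test and each group has 1 sample.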

Other observations

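Genes that lie in or beside the HOX clusters but are not HOX genes were marked unevenly. Of 8 listed protein-coding genes that flank the clusters, 7 had an H3K27Ac promoter peak in each list, and SKAP1 beside HOXB had none. Over all protein-coding genes the share was 56.3% with vehicle and 57.5% with DHT. EVX1 and EVX2, counted above with the HOX-related genes, were not among the 8 and had no promoter peak in either list. CBX5 beside HOXC was the highest in both lists, at 86 tags for vehicle and 99 for DHT. The lowest of the 7 was LNPK beside HOXD with vehicle, at 10 tags (14 with DHT), and SMUG1 beside HOXC with DHT, at 11 tags (13 with vehicle). MTX2, on the other side of HOXD, had 26 and 28 tags. Among the long non-coding RNA genes, HOTAIR had no peak over its promoter or body, and the nearest H3K27Ac peak was 2.18 kb away with vehicle and 2.39 kb away with DHT, at the end of HOXC11. HOTTIP, at the 5′ end of HOXA, was 11.4 and 11.3 kb from the nearest peak. HOXA-AS2 had 13 and 26 tags of H3K27Ac over a promoter. The TCF7L2 peak of 202 tags lay over another of its promoters, 4.77 kb from that H3K27Ac with vehicle and 4.41 kb with DHT. These genes were chosen after their values were seen.

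Of the miRNA hairpins in the clusters, MIR615 lay inside the H3K27Ac peak of HOXC5, with 76 and 63 tags, and 0.145 kb from the TCF7L2 peak there. MIR196B in HOXA was 1.18 kb from the nearest H3K27Ac peak with vehicle and 1.12 kb with DHT, and MIR196A2 in HOXC was 2.15 and 2.36 kb away. MIR196A1 in HOXB was 26.7 and 26.6 kb away. The 5p mature miRNAs of the 3 MIR196 hairpins share 1 seed and are known to target HOX transcripts. Their sequences and that of miR-615-3p are from RefSeq (GRCh38.p14), 5′ to 3′, with the seed, bases 2 to 8, in capitals.
hsa-miR-196a-5p: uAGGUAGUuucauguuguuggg
hsa-miR-196b-5p: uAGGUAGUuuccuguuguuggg
hsa-miR-615-3p: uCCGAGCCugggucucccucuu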
